A study of Mus musculus with 14 samples.

Results

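A set of 9 genes of the complement system were followed in whole mouse colon, on every array of a 2-genotype experiment with and without chemically induced colitis. They are the recognition chains C1qa, C1qb and C1qc, the classical pathway components C4b and C2, the alternative pathway component Cfb, the central component C3, and the anaphylatoxin receptors C3ar1 and C5ar1. The members were all array probes whose RefSeq accession matched one of these 9 genes, which gave 12 probes, all of them among the 29523 probes tested, and 9 of the 15540 genes tested. Female C57BL/6 mice aged 4 to 6 months, kept on a chow diet, received regular water or 2.5% dextran sulfate sodium (DSS), an agent that injures the colonic epithelium, in drinking water for 7 days. Flox mice carry floxed alleles of Nr3c1, the glucocorticoid receptor (GR) gene (GR fl/fl), and GR iKO mice are Flox mice that also carry Villin-cre, which is active in the intestinal epithelium, so that all 4 groups share the floxed alleles and every non-epithelial cell of the GR iKO colon keeps the gene intact. Each array held 1 mouse. Water groups numbered 4 mice per genotype and DSS groups 3.

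Complement is a cascade of plasma and tissue proteins that marks microbes and damaged cells and draws in leukocytes. The classical pathway starts when C1q, built from the products of C1qa, C1qb and C1qc, binds a target, after which C4 and C2 are cleaved to form a convertase. Factor B, encoded by Cfb, forms the convertase of the alternative pathway, and both convertases cleave C3. The released fragments C3a and C5a act through the receptors encoded by C3ar1 and C5ar1 on myeloid and other cells. The liver makes most circulating complement, whereas C1q is made chiefly by macrophages and dendritic cells, and C3 and factor B are also produced locally by epithelial, stromal and mesothelial cells.

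In RefSeq (GRCm38.p6), C1qa, C1qc and C1qb follow one another on chromosome 4 and Cfb and C2 are neighbours on chromosome 17, which also carries C4b and C3. Upstream sequences were available for 5 of the 9 genes (C1qb, C1qc, C3, C3ar1 and C5ar1), not for C1qa, C2, C4b or Cfb. The 4 shown here belong to the 2 C1q chains that moved together, to C3, which had the largest change, and to the receptor C3ar1. Each line gives the 250 bases before the annotated start, on the strand of the gene, from chr4:136886201-136886450 for C1qb, chr4:136892915-136893164 for C1qc, chr17:57228137-57228386 for C3 and chr6:122856158-122856407 for C3ar1, all on the minus strand. Capitals mark matches to the motifs searched.
C1qb: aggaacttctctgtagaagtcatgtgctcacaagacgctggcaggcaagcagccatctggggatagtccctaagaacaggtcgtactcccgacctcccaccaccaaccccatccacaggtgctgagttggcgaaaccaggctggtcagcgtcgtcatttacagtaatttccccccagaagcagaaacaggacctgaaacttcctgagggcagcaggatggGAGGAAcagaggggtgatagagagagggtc
C1qc: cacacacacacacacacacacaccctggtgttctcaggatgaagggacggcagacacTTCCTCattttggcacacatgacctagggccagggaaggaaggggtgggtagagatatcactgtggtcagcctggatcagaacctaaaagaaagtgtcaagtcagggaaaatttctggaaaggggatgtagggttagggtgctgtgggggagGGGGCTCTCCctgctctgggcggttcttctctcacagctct
C3: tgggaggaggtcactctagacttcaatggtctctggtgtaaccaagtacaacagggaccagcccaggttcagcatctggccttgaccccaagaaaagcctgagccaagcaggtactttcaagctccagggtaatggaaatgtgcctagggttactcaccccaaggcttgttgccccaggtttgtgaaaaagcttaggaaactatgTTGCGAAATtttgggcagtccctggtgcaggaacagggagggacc
C3ar1: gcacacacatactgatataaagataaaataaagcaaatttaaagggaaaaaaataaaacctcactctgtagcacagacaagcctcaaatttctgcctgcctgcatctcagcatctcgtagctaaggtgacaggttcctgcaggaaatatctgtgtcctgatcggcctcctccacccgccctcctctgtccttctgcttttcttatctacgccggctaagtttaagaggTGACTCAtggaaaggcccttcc
Both strands were searched for 7 motifs. The core bound by PU.1, a myeloid factor (GAGGAA), was in C1qb and C1qc and in 23.3% of the 32851 mouse promoters of this length. C1qc also held the NF-kB consensus, found in 7.25% of promoters. C3 held a C/EBP type motif (TTNNGNAAT, 10.2% of promoters), and C3ar1 an AP-1 type motif (TGANTCA, 6.75%). None of the 5 windows held a glucocorticoid response type motif (ACANNNTGT, 5.84%), an interferon response type motif (2.98%) or a GAS type motif (TTCNNNGAA, 7.02%). No match overlapped another. These matches describe the letters of these windows.

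Levels are given as log2 processed signal minus the 75th percentile of the same array, so that 0 is the level of that percentile and 1 unit is a doubling of signal. Levels of different genes come from different probes and were not compared with each other. The 75th percentile ranged from 280 to 1051 intensity units, lowest on Flox DSS replicate 4, and each array had 62.6% to 71.3% of its probes well above background. Pairs of water arrays of the same group had correlations across probes of 0.983 to 0.989, and such pairs of DSS arrays 0.958 to 0.986. Since DSS arrays varied more, each treatment had its own weight in the fit. Nr3c1 in GR iKO colon was at 57.2% of its Flox level on water (two-sided exact permutation p = 0.0286, the smallest possible for 4 against 4) and at 55.4% on DSS (exact permutation p = 0.1, the smallest possible for 3 against 3). Because whole colon was profiled, more cells of a type and more RNA per cell cannot be told apart in any of the values that follow.

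DSS raised most of the complement genes in both genotypes. In Flox colon, 7 of the 9 genes rose and none fell, where 24.2% of all 15540 genes tested rose and 26.3% fell (limma, adjusted p under 0.05). In GR iKO colon, 8 of the 9 rose and none fell, where 20.3% of all genes rose and 22.6% fell. The median log2 change of the 9 genes was 1.33 in Flox and 1.23 in GR iKO, against -0.07 and -0.05 over all genes tested. The changes ranged up to 10.1-fold for C3. All are relative to the array's 75th percentile. When arrays were scaled to 7 spike-in probes instead, the median of all probes moved to -2.52 in Flox and -0.94 in GR iKO, the Flox changes of C1qa, C1qb, C1qc, C4b, C2, Cfb and C3ar1 turned negative, and 7 of the 8 calls in GR iKO were lost, leaving C3 (2.42, limma adjusted p = 0.01). Cfb was called in GR iKO and not in Flox, although the difference between its responses did not pass the test, and C5ar1 was near background throughout. In each of the 3 slides carrying both Flox groups, all 7 genes called in Flox were higher on DSS, from 0.40 for C1qa to 4.04 for C3. Within each of the 3 slides with both GR iKO groups, all 8 genes called there were higher, from 0.52 for C3ar1 to 3.46 for C3. These differences reuse the arrays on which the genes were called, so they are no separate evidence of a rise.

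**Figure D1:**
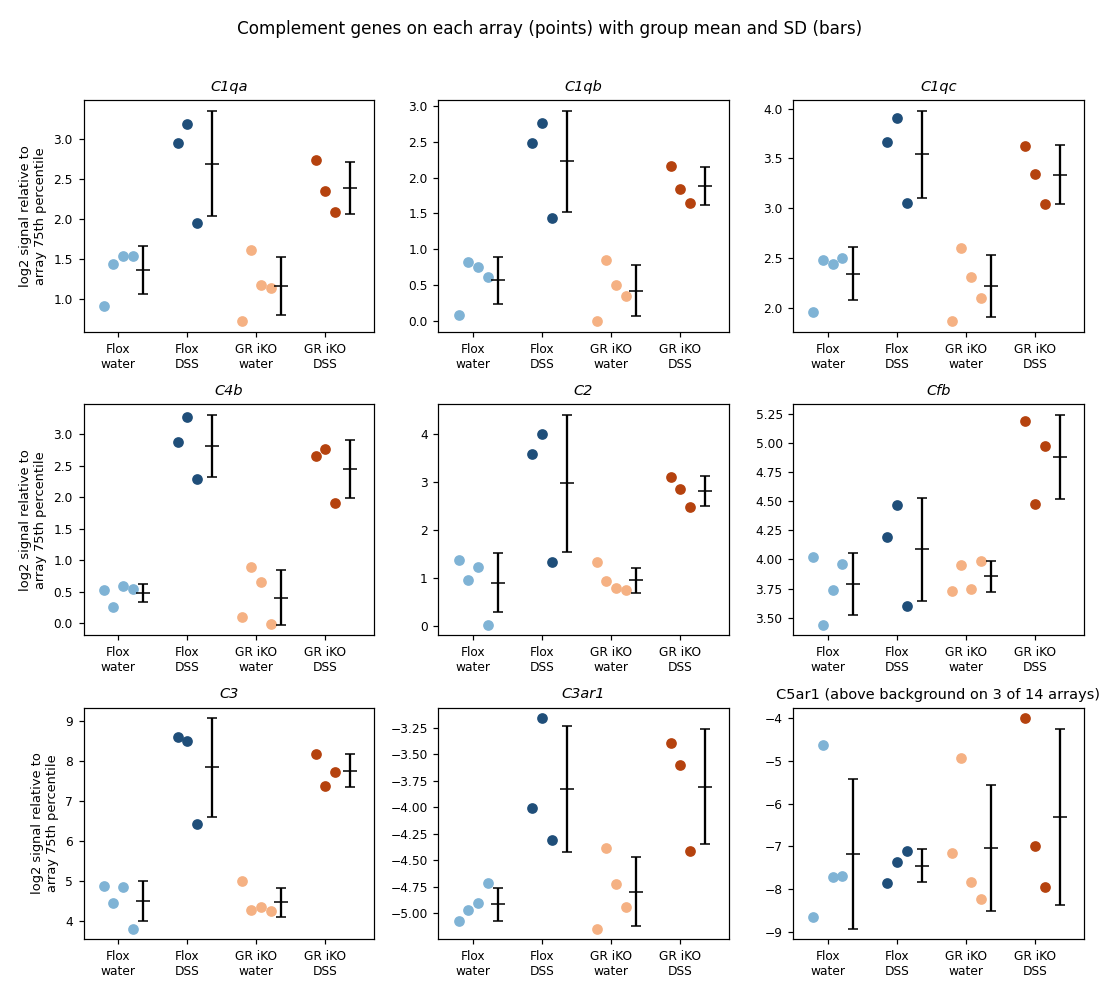
Log2 signal relative to the array's 75th percentile (y axis) of the 9 complement genes in the 4 groups (x axis), 1 point per array, with the group mean and SD as a bar beside the points. The DSS arrays sat above all water arrays of the same genotype for C1qa, C1qb, C1qc, C4b and C3 on this scale, which in Flox turns for all of these but C3 under spike-in scaling, while the points of C5ar1 were scattered, with 3 of 14 arrays well above background.

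The 3 C1q genes, whose products assemble into the recognition molecule of the classical pathway, gave nearly the same pattern. C1qa was at 0.92, 1.45, 1.55 and 1.55 in Flox on water and at 2.95, 3.19 and 1.95 on DSS. In GR iKO, C1qa was at 0.73, 1.61, 1.18 and 1.15 on water and at 2.74, 2.35 and 2.10 on DSS. In neither genotype did the DSS and water levels overlap, a separation that 28.1% of all genes showed in the upward direction in Flox and 23.4% in GR iKO, and Flox DSS replicate 4 was the lowest DSS array. C1qa rose by 1.33 ± 0.34 log2 units (SE; 2.52-fold, limma adjusted p = 0.00703) in Flox and by 1.23 ± 0.34 (2.35-fold, adjusted p = 0.0133) in GR iKO. Its call was lost without Flox DSS replicate 1 (1.20, adjusted p = 0.059) or 2 (1.08, adjusted p = 0.0691), and in GR iKO without GR iKO DSS replicate 1 (1.06, adjusted p = 0.0604).

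C1qb was at 0.08, 0.81, 0.74 and 0.61 in Flox on water and at 2.49, 2.76 and 1.43 on DSS. In GR iKO its levels were -0.01, 0.85, 0.50 and 0.34 on water and 2.17, 1.84 and 1.65 on DSS. The groups were again separate, and the increase was 3.17-fold in Flox (log2 1.67 ± 0.35, limma adjusted p = 0.00221) and 2.76-fold in GR iKO (1.46 ± 0.35, adjusted p = 0.00623). C1qc was at 1.95, 2.48, 2.44 and 2.50 in Flox on water and at 3.66, 3.90 and 3.05 on DSS. In GR iKO, C1qc was at 1.86, 2.60, 2.31 and 2.10 on water and at 3.63, 3.34 and 3.04 on DSS. All DSS levels of C1qc exceeded all water levels, with increases of 2.29-fold in Flox (1.20 ± 0.29, limma adjusted p = 0.00455) and 2.17-fold in GR iKO (1.12 ± 0.29, adjusted p = 0.00851). Across the 14 arrays, C1qa, C1qb and C1qc correlated with each other at Pearson r = 0.99, and at 0.97 to 0.98 once group means were removed. The 3 probes share arrays and scaling, so these correlations describe co-variation between mice and carry no test.

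C4b, which encodes the component cleaved by activated C1s after C1q binding, had a larger response. It was at 0.52, 0.26, 0.59 and 0.54 in Flox on water and at 2.88, 3.27 and 2.29 on DSS. In GR iKO it was at 0.10, 0.89, 0.65 and -0.02 on water and at 2.66, 2.77 and 1.91 on DSS. The lowest DSS array lay more than 1 log2 unit above the highest water array in each genotype. C4b rose 5.05-fold in Flox (log2 2.34 ± 0.33, limma adjusted p = 0.000151) and 4.11-fold in GR iKO (2.04 ± 0.33, adjusted p = 0.000575). Its near-identical paralog C4a was well above background on 0 of 14 arrays and was not tested, and whether the C4b probe also binds C4a RNA was not tested.

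C2, the protease subunit of the classical convertase, varied more between mice. Its levels were 1.39, 0.96, 1.24 and 0.03 in Flox on water and 3.58, 3.99 and 1.33 on DSS. In GR iKO they were 1.33, 0.95, 0.80 and 0.75 on water and 3.10, 2.86 and 2.49 on DSS. The groups did not overlap in GR iKO, whereas in Flox DSS replicate 4 lay within the range of the water arrays. C2 rose 4.18-fold in Flox (log2 2.06 ± 0.55, limma adjusted p = 0.00809) and 3.62-fold in GR iKO (1.85 ± 0.55, adjusted p = 0.0175), and its second probe gave 2.02 and 1.89, both called. The Flox call was lost without Flox DSS replicate 1 (1.76, adjusted p = 0.0711) or 2 (1.55, adjusted p = 0.0823), and the GR iKO call without GR iKO DSS replicate 1 (1.71, adjusted p = 0.0639) or 3 (1.83, adjusted p = 0.0526).

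C3, on which all activation pathways converge, had the largest response of the 9 genes. It was at 4.87, 4.46, 4.85 and 3.81 in Flox on water and at 8.59, 8.51 and 6.42 on DSS. In GR iKO it was at 5.01, 4.27, 4.35 and 4.26 on water and at 8.18, 7.37 and 7.72 on DSS. Every DSS array was above every water array, with Flox DSS replicate 4 well under the other Flox DSS arrays. C3 rose 10.1-fold in Flox (log2 3.34 ± 0.50, limma adjusted p = 0.000206) and 9.75-fold in GR iKO (3.29 ± 0.50, adjusted p = 0.000359). A second, dimmer probe of C3 gave 3.29 and 3.89, both called.

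Cfb, which encodes factor B, behaved differently from its neighbour C2. It was at 4.02, 3.44, 3.74 and 3.96 in Flox on water and at 4.19, 4.47 and 3.60 on DSS. In GR iKO, Cfb was at 3.73, 3.95, 3.75 and 3.99 on water and at 5.19, 4.48 and 4.98 on DSS. The Flox groups overlapped and the GR iKO groups did not. The change in Flox was 0.30 ± 0.24 log2 units (95% confidence interval -0.23 to 0.83, limma adjusted p = 0.339), and in GR iKO Cfb rose 2.04-fold (1.03 ± 0.24, adjusted p = 0.00553). With 1 quality weight per array, the change of Cfb in Flox passed the threshold (0.44, adjusted p = 0.0219).

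Of the receptors, C3ar1, which binds C3a, was measured near the low end of the signal. C3ar1 was at -5.08, -4.97, -4.91 and -4.71 in Flox on water and at -4.00, -3.16 and -4.31 on DSS. In GR iKO it was at -5.14, -4.38, -4.73 and -4.94 on water and at -3.39, -3.60 and -4.42 on DSS. The Flox groups were separate, while GR iKO DSS replicate 4 fell within the range of the water arrays. C3ar1 rose 2.13-fold in Flox (log2 1.09 ± 0.31, limma adjusted p = 0.0112) and 1.99-fold in GR iKO (0.99 ± 0.31, adjusted p = 0.022). The Flox call was lost without Flox DSS replicate 2 (0.76, adjusted p = 0.114) and the GR iKO call without GR iKO DSS replicate 1 (0.79, adjusted p = 0.105) or 3 (0.89, adjusted p = 0.0823). A second C3ar1 probe, well above background on 9 of 14 arrays, gave 0.61 (adjusted p = 0.25) and 0.98 (adjusted p = 0.0802), neither called.

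C5ar1, the C5a receptor of neutrophils and macrophages, was well above background on 3 of 14 arrays, namely 1 each of the Flox water, GR iKO water and GR iKO DSS groups. Its values ranged from -8.64 to -4.00, with the 3 detected arrays at -4.64, -4.93 and -4.00 and every other array at -6.98 or below. The fitted changes of -0.27 in Flox (95% confidence interval -3.40 to 2.85) and 0.73 in GR iKO (-2.40 to 3.86) were not called, and intervals this wide show no more than that the probe could not resolve a change. Its neighbour C5ar2, a second C5a receptor, was above background on all 14 arrays and rose by 1.38 and 1.59 log2 units (limma adjusted p = 0.000156 and 9.95e-05).

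**Figure D2:**
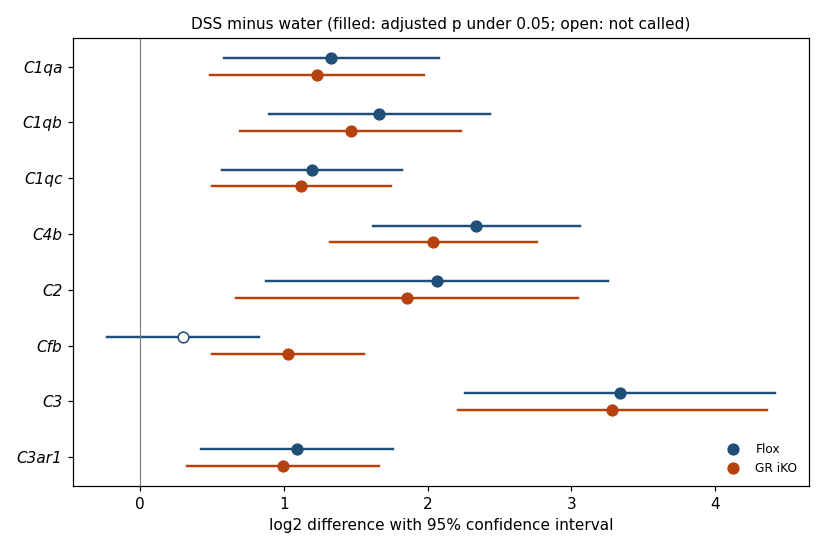
Log2 difference of DSS minus water (x axis) with its 95% confidence interval for 8 complement genes (y axis), in Flox and in GR iKO, with filled points for called differences. C5ar1 is left out because it was near background. Values are relative to the 75th percentile, and all Flox points except C3 turn negative under spike-in scaling. The intervals of both genotypes overlap for every gene, and Cfb in Flox, at 0.30, is the only open point.

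Whether loss of epithelial GR altered these genes was compared on each treatment and through the genotype by DSS interaction, which subtracts the Flox response to DSS from the GR iKO response. On water, 0 of the 9 genes were called, where 0.0257% of all genes tested were called, and none had an unadjusted p under 0.05, as 2.71% of all genes had (limma). The differences of the 8 genes above background ranged from -0.20 for C1qa to 0.12 for C3ar1. The 95% confidence intervals were narrowest for Cfb (-0.25 to 0.38) and widest for C2 (-0.66 to 0.77), and for C3 the interval was -0.67 to 0.62.

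The targeted gene, Nr3c1, was called lower in GR iKO on water (-0.80, limma adjusted p = 0.00902). Its difference on DSS, -0.85, was not called (limma adjusted p = 0.0869), so an absent call there does not show equal levels. On DSS, again 0 of the 9 genes were called, where 0.0193% of all genes tested were called. Of the 9, 1 had an unadjusted p under 0.05, a smaller share than the 19.8% of all genes tested (limma). That gene was Cfb, which was 0.80 ± 0.31 log2 units higher in GR iKO (1.74-fold, 95% confidence interval 0.12 to 1.47, limma adjusted p = 0.212), with the lowest GR iKO DSS array at 4.48 and the highest Flox DSS array at 4.47. Among all genes tested, 10% had GR iKO DSS arrays that were all above the Flox DSS arrays, so this separation was common in the comparison. In the 2 slides carrying Flox and GR iKO mice on DSS, Cfb was 0.29 and 1.38 higher in GR iKO. With 1 spread shared by all arrays the same difference was called (limma adjusted p = 0.0471), as were 3872 of the 29523 probes tested, 1753 of them higher. The other 7 genes above background differed by -0.37 for C4b to 0.02 for C3ar1, with intervals that reached from -1.68 to 1.37 for C2 and from -1.46 to 1.30 for C3. Differences of 2-fold in either direction therefore lie within the intervals of C2 and C3. A 2-fold lower level also lies within those of C1qa (-1.25 to 0.66), C1qb (-1.33 to 0.64) and C4b (-1.29 to 0.55). The same holds narrowly for C1qc (-1.0008 to 0.5954), and a 2-fold higher level lies within the interval of Cfb.

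The interaction was called for 0 of the 9 genes and for 0% of all genes tested, while 16.6% of all genes had an unadjusted p under 0.05, none of the 9 among them (limma). It was 0.73 for Cfb (95% confidence interval -0.02 to 1.48, adjusted p = 0.344) and lay between -0.30 for C4b and -0.05 for C3 for the other genes above background. Scaling to the spike-in probes moved the median of all probes to 1.54 in the interaction, and Cfb was then called in it (2.26, limma adjusted p = 0.0223) as well as on DSS (2.11, adjusted p = 0.0346). Under that scaling, 16211 of the 29523 probes tested were called in the interaction and 9456 on DSS, all of them higher. With array quality weights, 3027 of all probes were called in the interaction and again 0 of the 9 genes. The comparison on DSS and the interaction share the DSS arrays, so they are not separate evidence on Cfb. Of the 10 lists, those of neutrophils, smooth muscle and T cells had levels on DSS that did not overlap between the genotypes. Of all genes tested, 24.6% did not overlap in either direction, so such a separation was common. The exact permutation p of each of these lists was 0.1, the smallest possible for 3 against 3. The neutrophil list of 10 tested genes was at 4.14 to 5.08 log2 units over water in Flox on DSS and at 6.02 to 8.06 in GR iKO on DSS, and once group means were removed it correlated with Cfb at r = 0.73 over 14 arrays. Only 1 of its 10 genes was well above background on every water array, so the distance from water rests largely on values near background. The smooth muscle list was at 0.91 to 1.70 in Flox on DSS and at -0.78 to 0.49 in GR iKO on DSS, with r = -0.69 for Cfb, and the T cell list was at -1.24 to -0.55 and at -0.46 to 0.31, with r = -0.09. The macrophage list, which overlapped between the genotypes, had r = 0.66. The part of these cells in the Cfb values was not tested.

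**Figure D3:**
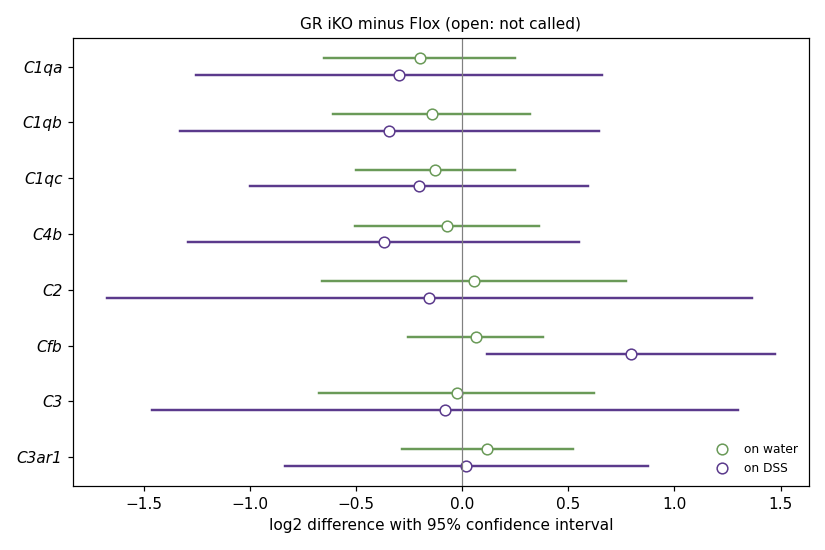
Log2 difference of GR iKO minus Flox (x axis) with its 95% confidence interval for 8 complement genes (y axis), on water and on DSS. All points are open, none being called, and the interval of Cfb on DSS, 0.12 to 1.47, is the only one that does not include 0.

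Between mice, the C1q genes and C3ar1 varied with macrophage genes, C4b with fibroblast genes, and C2 and C3 with mesothelial genes, once group means were removed. The macrophage list (12 tested genes, all well above background on every water array) was at 0.42 to 1.18 in Flox on DSS and 0.92 to 1.46 in GR iKO on DSS, and 5 and 8 of its genes rose, with Mertk lower in both. After removal of group means, this list correlated with C1qa at r = 0.93, with C1qc at 0.92, with C1qb at 0.88 and with C3ar1 at 0.86. The fibroblast list was then at 0.77 with C1qa, 0.80 with C1qb, 0.79 with C1qc and 0.74 with C3ar1. Over all arrays, the fibroblast list was slightly higher than the macrophage list for the C1q genes. It was at 0.934, 0.958 and 0.953 with C1qa, C1qb and C1qc, and the macrophage list at 0.931, 0.928 and 0.943. Of single genes, Pid1, Cfhr2 and Pld4 were the 3 most like C1qa over the 14 arrays (r = 0.976, 0.976 and 0.975). Nfam1 and Csf1r, the receptor for macrophage colony-stimulating factor, were most like C3ar1 over deviations from group means (r = 0.95 and 0.94). C4b varied most closely with the fibroblast list (r = 0.98 over all arrays and 0.83 over deviations), and Csf1, Stab1 and Col6a2 were its nearest genes over deviations (r = 0.93, 0.93 and 0.93). The macrophage list was at 0.90 and 0.68 with C4b, and C3ar1 was at 0.88 with C4b over deviations. These are correlations over 14 arrays that share processing, given as descriptions.

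Among the 10 lists, the mesothelium list gave the highest correlations with C2 and C3 over deviations from group means. Over all arrays it was also highest for C2 (r = 0.94), while C3 correlated more with the fibroblast (0.94), neutrophil (0.91) and macrophage (0.88) lists than with the mesothelium list (0.84). The mesothelium list holds 4 genes (Msln, Upk3b, Lrrn4 and Wt1, the serosal lining of the gut). Only 2 of them were well above background on every water array, so its water levels rest partly on values near background. On DSS, 1 of them, Wt1, was called higher in Flox and 0 in GR iKO. The list was at 0.71, 0.49, 0.80 and -2.16 in Flox on water and at 3.13, 3.65 and -0.58 in Flox on DSS. It was at 0.59, -0.28, -0.09 and -0.05 in GR iKO on water and at 2.60, 1.61 and 1.17 on DSS. The lowest values were on Flox water replicate 4 and Flox DSS replicate 4, the arrays on which C2 (0.03 and 1.33) and C3 (3.81 and 6.42) were the lowest of their groups. Flox DSS replicate 4 was not low for these genes alone. Among the Flox DSS arrays it was also lowest for C1qa, C1qb, C1qc, C4b, Cfb and C3ar1. The same held for the macrophage (0.42) and fibroblast (1.09) lists. Over deviations, the list correlated with C2 at r = 0.97 and with C3 at 0.94, and C2 with C3 at 0.95. The single genes most like C2 were Wt1 over all arrays (r = 0.97) and Gpm6a and Lrrn4 over deviations (0.99 and 0.98), and those most like C3 were Krt80 over all arrays (0.99) and Upk1b over deviations (0.96).

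Without Flox DSS replicate 4, the DSS response of Flox colon was 2.88 for C2 (limma adjusted p = 0.000657) and 4.05 for C3 (adjusted p = 4.87e-05), and 7 of the 9 genes were called. Without Flox water replicate 4 it was 1.77 for C2 (adjusted p = 0.00864) and 3.11 for C3 (adjusted p = 0.000288), and 7 of the 9 were called. The part of mesothelial tissue in the C2 and C3 responses was not tested.

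**Figure D4:**
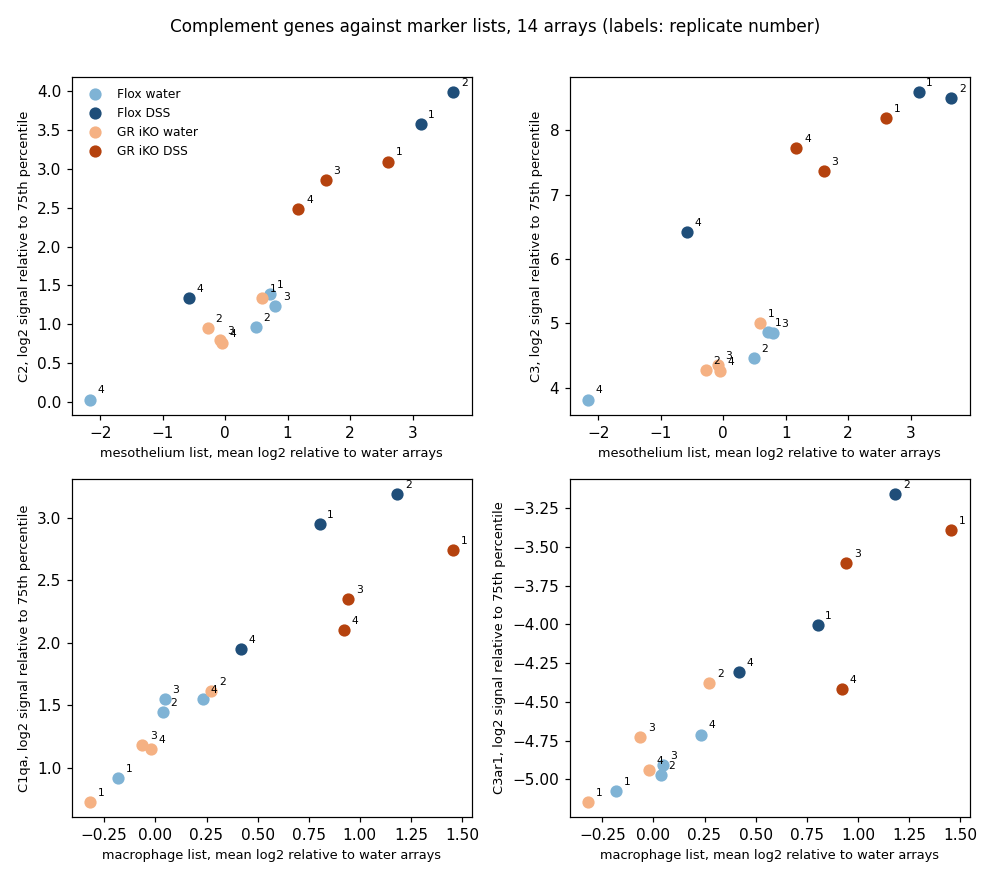
Levels of C2, C3, C1qa and C3ar1 (y axes, log2 signal relative to the 75th percentile) against the mean log2 level of a marker list relative to the water arrays (x axes), 1 point per array, coloured by group and labelled with the replicate number. Flox water replicate 4 and Flox DSS replicate 4 are lowest in their groups for the mesothelium list and for C2 and C3, and C1qa and C3ar1 rise with the macrophage list. Flox DSS replicate 4 is also the lowest Flox DSS array for C1qa, C3ar1 and the macrophage list.

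The rest of the cascade was followed in 41 further complement genes, of which 35 were tested. In Flox colon, 19 of the 35 rose on DSS and 3 fell (C4bp, Cr1l and Cr2), and in GR iKO colon 18 rose and 2 fell (C8g and Cr1l), with medians of 1.24 and 1.23, where 24.2% of all genes rose and 26.3% fell in Flox and 20.3% rose and 22.6% fell in GR iKO. These directions are relative to the 75th percentile. Under spike-in scaling, 1 was called higher and 18 lower in Flox, and 4 higher and 5 lower in GR iKO. The proteases that act with C1q rose in both genotypes, C1ra by 2.36 and 2.40 log2 units (limma adjusted p = 0.000447 and 0.000611) and C1rb by 2.71 and 2.76 (adjusted p = 0.000178 and 0.00025), although these paralogs may share signal. Properdin, encoded by Cfp, which stabilises the alternative convertase, rose by 1.76 and 1.77 (adjusted p = 0.000117 and 0.000183). Of 11 tested initiators, 7 rose in Flox and 5 in GR iKO, and none fell, against the shares of all genes given above. Of 3 tested terminal components, C6, a subunit of the membrane attack complex, rose in both, by 1.67 and 1.55 (adjusted p = 0.00575 and 0.011). Among 12 inhibitors, 7 rose and 2 fell in Flox, and 6 rose and 1 fell in GR iKO. Those raised in both included Cfi, the protease that degrades C3b, at 2.93 and 1.67 (adjusted p = 8.64e-06 and 0.000501), and Serping1, the C1 inhibitor, at 1.97 and 1.83 (adjusted p = 5.14e-05 and 0.00014). Cd59a, which blocks the membrane attack complex, rose by 2.84 and 1.50 (adjusted p = 0.000687 and 0.0323).

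Components that the liver secretes were among those called in Flox. Mbl2, a mannose-binding lectin, was well above background on no water array and on all 3 Flox DSS arrays, at least 10.5-fold higher than on water (limma adjusted p = 0.000458), and on 2 of 3 GR iKO DSS arrays, at least 2.4-fold higher (adjusted p = 0.00969). These bounds set the DSS mean against the lowest signal well above background on the water arrays. In GR iKO that mean includes replicate 3, at -7.73 and not well above background. This value lay within the range of the GR iKO water arrays, so the groups overlapped there. Vtn, which encodes vitronectin, rose by 3.25 in Flox (adjusted p = 0.00274), and its change in GR iKO was 1.04 (adjusted p = 0.276). In the other direction, C4bp changed by -2.30 in Flox (adjusted p = 0.003) and by -1.18 in GR iKO (adjusted p = 0.0874). Hepatocyte markers were followed on the same arrays. Of 5 tested hepatocyte genes, 4 rose (Alb, Apoa2, Fabp1 and Ahsg) and 1 fell in Flox on DSS. In GR iKO, 2 rose (Fabp1 and Ahsg) and 1 fell. Of all genes tested, 24.2% rose and 26.3% fell in Flox, and 20.3% rose and 22.6% fell in GR iKO. All 5 hepatocyte genes were well above background on every water array, and whether their RNA came from hepatocytes was not tested. Alb changed by 4.52 in Flox (limma adjusted p = 0.00969) and by 1.12 in GR iKO (adjusted p = 0.505). The gene that fell was Ttr in both genotypes (-3.80 and -4.49, adjusted p = 8.48e-06 and 5.57e-06). Ttr was well above background on only 8 arrays, so the size of its fall rests partly on values near background. The hepatocyte list, Ttr included, was at 2.19 to 3.76 on the Flox DSS arrays. On GR iKO DSS replicates 1, 3 and 4 it was at 1.80, -1.32 and 2.38. On these arrays Mbl2 was at -3.30, -7.73 and -2.95, and Vtn at -2.45, -0.51 and -1.61. Where the list was lowest, Mbl2 was thus lowest and Vtn highest. The part of the list in the Mbl2 and Vtn values was not tested. For C2 and C3, the correlation with the hepatocyte list over deviations was -0.37 and -0.12.

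Of 7 further receptors, 3 rose and 1 fell in Flox, where 24.2% of all genes rose and 26.3% fell, and 5 rose and none fell in GR iKO, where 20.3% rose and 22.6% fell. Itgam, the alpha chain of complement receptor 3, rose by 2.07 and 2.60 log2 units (limma adjusted p = 0.000272 and 9.59e-05). Itgb2, its beta chain, rose by 1.87 in GR iKO (adjusted p = 0.000861), and its change in Flox was 0.69 (adjusted p = 0.0984). Cr2, a B cell receptor for C3 fragments, was at -2.60 to -2.14 on the Flox water arrays and at -7.73, -6.84 and -2.79 on the Flox DSS arrays (adjusted p = 0.0224). Only the last of these DSS arrays, close to the water levels, was well above background, so no size is given for its fall, and a second Cr2 probe gave -0.65 (adjusted p = 0.318). In the genotype comparisons and the interaction, 0 of the 35 genes were called. Unadjusted p values were under 0.05 for 2 on water, 10 on DSS and 8 in the interaction, where the same held for 2.71%, 19.8% and 16.6% of all genes tested.

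**Figure D5:**
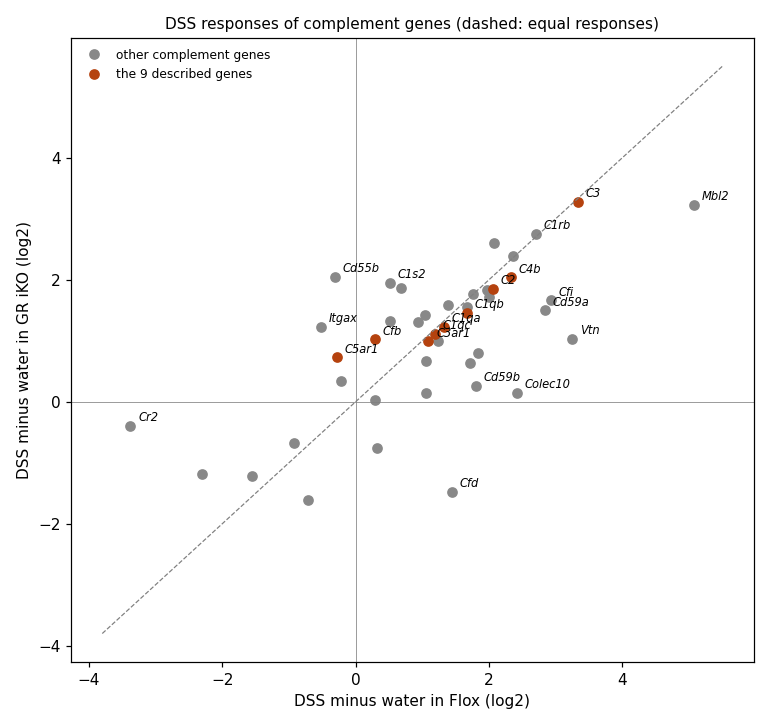
Log2 difference of DSS minus water in GR iKO (y axis) against that in Flox (x axis) for the 9 described genes and 35 further complement genes, 1 point per gene, with equal responses along the dashed line. C3, C4b, C2 and the C1q genes lie close to the line, Cfb lies above it at 0.30 and 1.03, and the fitted value of Mbl2 rests on water arrays below background. Both axes are relative to the 75th percentile, and spike-in scaling turns the Flox values of the described genes above 0 negative except that of C3 and gives 1 higher and 18 lower calls among the 35 further genes in Flox.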

How the data were processed

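Total RNA (500 ng per colon) was labelled with Cy3 and hybridised to Agilent 1-colour arrays. The authors extracted spots with Agilent Feature Extraction, and the deposited scanner output holds the processed signal, a background-corrected intensity on a linear scale in which values near background are replaced by small positive surrogates. A deposited value table holds log2 values of the same arrays. The submitters' processing notes also name Partek 6.6.

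The 1639 control spots and outlier-flagged spots were left out and spots of a probe averaged. Log2 signals were scaled to each array's 75th percentile. Probes well above background on at least 3 of 14 arrays were tested. Accessions were matched to RefSeq symbols (28223 of 29245 matched), and each gene was represented by its brightest probe on average. Groups followed the labels. Models were fitted over all 14 arrays with limma 3.58.1 in R 4.3.3 (lmFit with 1 weight for water and 1 for DSS arrays, 1.69 and 0.498, and eBayes), with two-sided p values adjusted by the Benjamini-Hochberg method over all probes. On simulated data that followed the model, false calls stayed near the nominal rate, but when the ratio of DSS to water spread differed between probes and few probes changed, they exceeded it, so calls close to the threshold are less secure than their adjusted p states. Marker lists were summarised per array by averaging, over their genes, the log2 difference from the mean of the water arrays. Values were also computed within each of 4 slides.

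Alternatives covered the weights, background correction, scaling, filter, probe choice, slide and replicate blocks, and each array left out in turn. All members, and every further complement gene called in a DSS response with a log2 change of at least 1, could be named, as could the 3 genes most like each member. Not every gene of the lists is reported here. Members and lists were chosen with earlier results of these data known. The number of arrays limits the precision of every value.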

Additional observations from a re-analysis of the deposited data

Results flagged for a closer look

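In groups of 4 water arrays, 1 array stood apart from the other 3 in 9 of 88 groups tested over the complement genes, where chance gives about 1 in 20. The groups share arrays, and genes such as C1qa and C1qc vary together (r = 0.99). They are therefore not independent, and whether the count exceeds that rate was not tested. On Flox water replicate 1, C1qa was at 0.92, under 1.45 to 1.55 on the other 3 arrays, and C1qc was at 1.95, under 2.44 to 2.50. C3 on GR iKO water replicate 1 was at 5.01, above 4.26 to 4.35. On GR iKO water replicate 4, Colec10 was low at -0.75 and C5ar2 low at -2.85. On Flox water replicate 4, Cd55 was low at 0.87 and Vtn high at -1.74. Colec11 was high on Flox water replicate 3 at -3.77, and Cd93 was low on Flox water replicate 2 at 0.54.

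Itgax, the alpha chain of complement receptor 4, was singled out because each Flox DSS array was below the Flox water mean and each GR iKO DSS array above the GR iKO water mean. Its rise in GR iKO was called (1.23, limma adjusted p = 0.00772), and its change in Flox was not (-0.51, adjusted p = 0.193), where the groups overlapped. The response of GR iKO exceeded that of Flox by 1.75 ± 0.44 log2 units (SE), and the interaction was not called (limma adjusted p = 0.147).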

How the results depend on the processing

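With all arrays kept and under alternatives other than spike-in scaling, DSS raised 6 to 8 of the 9 genes in either genotype, and the calls of C1qa, C1qb, C1qc, C4b, C2 and C3 held in both. C3ar1 missed the threshold in GR iKO with array quality weights (0.66), quantile normalization (0.89) and the deposited table (0.89), and in Flox with the mean of its probes (0.85). Spike-in scaling gave Flox changes of -1.07 for C1qa, -0.73 for C1qb, -1.20 for C1qc, -0.059 for C4b, -0.33 for C2, -2.10 for Cfb and -1.30 for C3ar1, with 3 genes called, all lower (C1qc, Cfb and C3ar1), and 1 gene (C3) called in GR iKO. The cause was not tested. It also called 25764 probes in Flox (205 higher and 25559 lower, against 6248 and 8031), 19 further complement genes in Flox (1 higher and 18 lower, against 19 and 3) and 9 in GR iKO (4 higher and 5 lower, against 18 and 2), and 3 probes in the genotype comparison on water. On DSS and in the interaction it called Cfb (1 gene each), 10 and 12 further complement genes, and 9456 and 16211 probes, all higher.

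With equal weights, Cfb (1 gene), 6 further complement genes and 3872 probes were called between genotypes on DSS, 37 probes in the interaction and 1 on water, against 4, 0 and 7. Array quality weights called 3 further complement genes and 4555 probes on DSS, and 3 genes and 3027 probes in the interaction. For the genotype comparison on DSS, the count of probes was 7 with normexp on the median spot signal, 19 with quantile normalization, 20 in the deposited table, 14 for probes above background on all arrays, and 0 with no filter, the slide block, the replicate block, or a fit of the compared groups alone. The interaction count was 6 with normexp and 3 with quantile normalization, the deposited table and the strict filter, and the count on water was 4 with normexp and the strict filter and 3 in the fit of the compared groups. That last fit was not made for the interaction, and C5ar1 has no value under the strict filter.

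Leaving out 1 array at a time gave 4 to 7 genes called in Flox and 5 to 8 in GR iKO, lowest without Flox DSS replicate 2 and GR iKO DSS replicate 1. Probes called ranged from 9514 to 15059 in Flox, lowest without Flox DSS replicate 1. On DSS they ranged from 0 to 829, highest without Flox DSS replicate 4 and next, at 778, without GR iKO DSS replicate 3, with 0 to 1 further complement genes. In the interaction they ranged from 0 to 61, highest without GR iKO DSS replicate 3. Differences called under neither setting changed sign in 88 of 1156 recomputed values, 83 of them in genotype comparisons or the interaction.

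Same-numbered samples of different groups deviated together at r = -0.23 to 0.31 over 18 pairs, 9 of them over 0.1. The labels do not tie the numbers to a litter, batch or day, but same-numbered samples of 1 genotype lay on the same slide, so the number and the slide cannot be told apart there. The replicate block and the slide block each left 7 and 8 genes called on DSS and 0 in the genotype comparisons. The planned normexp correction of the mean spot signal was not run, since the median signal was the column at hand, a choice made after seeing the data. C5ar1, and to a lesser degree C3ar1, are limited by signal near background.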
